A study of Bos taurus with 24 samples.

Results

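XIRP1, SLCO4A1 and ZBTB46 are 3 genes selected on the rise of their read counts in bovine dermal fibroblasts at 2 h after lipopolysaccharide (LPS), with the breeds combined. They were 3 of 27550 rows with a gene symbol in a table of 59846 rows, and the size of that rise is therefore given here as a description, without a test. The fibroblasts, which build the connective tissue of skin, had been cultured from shoulder biopsies of 4 Holstein (dairy) and 4 Angus (beef) heifers of the same age, frozen at an early passage and revived for the challenge. Each of the 8 cultures came from 1 animal and was sampled at 0 h, before LPS, and at 2 h and 8 h in 100 ng/ml LPS, an outer membrane molecule of Gram-negative bacteria, which gave 24 samples of polyadenylated RNA in 6 groups of 4. Media held serum throughout, duplicate wells were pooled before extraction, and no untreated wells were sampled at 2 h or 8 h, so time in culture and LPS cannot be told apart. Beyond breed and hour the cultures shared all treatment. The study describes Holstein calves as parted from the dam soon after birth and reared on milk replacer, and Angus calves as nursing at pasture. Breed and early rearing therefore cannot be told apart.

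The proteins of these genes have little in common. XIRP1 encodes Xin, an actin-binding repeat protein of striated muscle that sits at the ends of myofibrils and at the junctions between heart muscle cells, and that appears in muscle repair. SLCO4A1 encodes a plasma membrane transporter of the organic anion family that carries thyroid hormones, prostaglandins and conjugated steroids. ZBTB46 encodes a BTB domain zinc finger transcription factor, known mainly as a mark of classical dendritic cells and of endothelial cells.

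The genes lie on 2 chromosomes of the bovine build UMD v3.1, and none of the 3 rows overlapped another. XIRP1 spans chromosome 22 from 12549676 to 12558895 on the minus strand (9.2 kb). ZBTB46 spans chromosome 13 from 54471017 to 54499223 on the plus strand (28.2 kb), and SLCO4A1 the same chromosome from 55149364 to 55172423 on the minus strand (23.1 kb), with 650.1 kb between them. A row is the whole span of a gene, introns included, so counts cannot be divided among exons, introns and untranslated regions.

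Levels are given as CPM, counts as a share of the library after scaling by trimmed mean of M-values (TMM), and cannot be compared between genes, because they are not divided by length. Total counts were 51014538 to 104406293 per sample, so that 1 CPM stood for 51.0 to 104.4 counts and 3 counts, the smallest level taken as shown, for 0.029 to 0.059 CPM of the total. Counting intervals and this floor cover counting error only. Reads of the collagen gene COL1A1 gave 66.2 to 67.1 covered bases for each count in 4 samples and 111.8 to 119.0 in the other 20, a sign of another way of counting. The 4 samples were those at 0 h of Angus animal 4, of Holstein animal 2 and of Holstein animal 4, and that at 2 h of Angus animal 3. Results for the 3 genes that these samples moved are given with and without them.

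The labelled cell type was checked against its markers. All 10 fibroblast markers, COL1A1 and COL1A2 among them, reached 1 CPM, and their summed level was 37874 to 124725 CPM. The highest sum was in Holstein at 0 h, a group that holds samples with the other COL1A1 counting. In the groups without such a sample the sum was 37874 to 85753 CPM. Of 14 striated muscle markers 4 reached 1 CPM in any sample, with 0 counts of MYOD1 and 1 count of MYOG over all 24 samples, and their summed level was 2.14 to 5.96 CPM. Among 11 dendritic cell markers 1 (CCR7) and among 10 endothelial markers 3 (PECAM1, VWF and TEK) reached 1 CPM, with XCR1 and SOX17 at 0 counts in every sample. Macrophage markers (2 of 9 reaching 1 CPM) summed to 1.98 to 6.60 CPM, whereas keratinocyte markers (3 of 7) summed to 1.36 to 2.03 CPM in Angus cultures but 1.78 to 15.06 CPM in Holstein ones, with KRT5 at up to 10.2 CPM and KRT1 at 0 counts. Because RNA was measured in bulk, fewer cells of a type and less RNA per cell cannot be told apart.

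At 2 h, XIRP1 ranked 7th, SLCO4A1 10th and ZBTB46 12th by log2 fold change among the rows with a symbol. All 3 were among the 419 of 20157 tested rows called higher at that hour (2.08%), which is how they had been found. A row was called when its false discovery rate (FDR) was under 0.05, its fold change at least 2 and its average CPM above 1. The genes next to them in that order were CXCL2 (6.09 on the log2 scale) above XIRP1 and PTX3 (5.09) after ZBTB46, with EGR3, CCL5 and TNFAIP3 between. XIRP1 reached 1 CPM in 2 of 8 samples at 0 h and in 8 of 8 at 2 h, and SLCO4A1 and ZBTB46 in 0 and 8, so that each passed the filter of 1 CPM in at least 50% of samples through the 2 h group.

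XIRP1 was low before LPS, peaked at 2 h in every culture and was back near its starting level at 8 h. In Angus animals 1 to 4 its level was 0.184, 0.504, 0.853 and 0.173 CPM at 0 h, 4.40, 21.2, 43.7 and 3.85 CPM at 2 h, and 0.242, 0.415, 0.408 and 0.070 CPM at 8 h. In Holstein animals 1 to 4 it was 1.15, 0.717, 0.523 and 1.06 CPM at 0 h, 66.0, 61.2, 22.6 and 55.9 CPM at 2 h, and 1.61, 1.21, 0.686 and 1.16 CPM at 8 h. The 2 h samples did not overlap the other hours in either breed, and the Angus cultures fell into a low and a high pair at 2 h that kept the same order at 0 h.

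With the breeds combined the log2 fold change of XIRP1 at 2 h was 5.76 (standard error 0.54), or 54.0-fold. Within cultures the rise was 22.2-fold to 51.3-fold in Angus and 43.1-fold to 85.3-fold in Holstein, so that cultures which differed widely in level differed less in fold. Cultures without the other counting rose 23.9-fold and 42.0-fold in Angus and 57.2-fold and 43.1-fold in Holstein. At 8 h the level was 0.9% to 5.5% of that at 2 h in Angus and 2.0% to 3.0% in Holstein.

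SLCO4A1 rose as steeply but was retained. In Angus animals 1 to 4 its level was 0.147, 0.252, 0.140 and 0.655 CPM at 0 h, 10.4, 6.36, 25.04 and 8.31 CPM at 2 h, and 1.90, 1.58, 2.02 and 2.14 CPM at 8 h. In Holstein animals 1 to 4 it was 0.180, 0.029, 0.011 and 0.066 CPM at 0 h, 6.47, 7.28, 2.55 and 8.35 CPM at 2 h, and 2.36, 2.36, 0.490 and 2.97 CPM at 8 h. In Angus the 3 hours did not overlap, whereas in Holstein the 2 h and 8 h samples did, because animal 3 was low at 2 h and animal 4 high at 8 h.

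For SLCO4A1 the log2 fold change at 2 h was 5.62 (0.56), or 49.3-fold. The Angus cultures rose 12.7-fold to 178-fold. Both ends involve a sample with the other counting, the 0 h sample of animal 4 and the 2 h sample of animal 3. Animals 1 and 2 rose 70.2-fold and 25.3-fold. The Holstein folds rest on few counts at 0 h, 12, 2, 1 and 3 in animals 1 to 4, and were 36.0, 249 (95% exact counting interval 68.4 to 2060), 234 (41.4 to 9280) and 126 (43.0 to 614). At 8 h the cultures still held 8.1% to 25.7% of their 2 h level in Angus and 19.2% to 36.4% in Holstein.

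ZBTB46 rested on 2 to 17 counts per sample at 0 h and at 8 h, and its level was far higher at 2 h. At 0 h it had 5, 4, 4 and 17 counts in Angus animals 1 to 4 and 5, 2, 2 and 2 counts in Holstein animals 1 to 4, or 0.043 to 0.164 and 0.022 to 0.075 CPM. At 2 h its level was 1.79, 2.07, 1.77 and 1.52 CPM in Angus and 3.49, 4.02, 2.74 and 4.44 CPM in Holstein. At 8 h the Angus cultures were at 0.031 to 0.077 CPM and the Holstein cultures at 0.033 to 0.130 CPM, so the samples before LPS and at 8 h overlapped while every 2 h sample stood above them.

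The log2 fold change of ZBTB46 at 2 h was 5.41 (0.38), or 42.5-fold. The Angus cultures rose 29.1-fold, 45.1-fold, 41.0-fold and, in animal 4, 9.31-fold (5.62 to 16.4). The Holstein cultures rose 46.7-fold, 137-fold (37.6 to 1140), 126-fold (34.4 to 1050) and 101-fold (27.7 to 836), and the intervals are wide because 3 of them had 2 counts at 0 h. At 8 h the level was 1.8% to 4.3% of that at 2 h in Angus and 0.9% to 2.9% in Holstein.

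**Figure D1:**
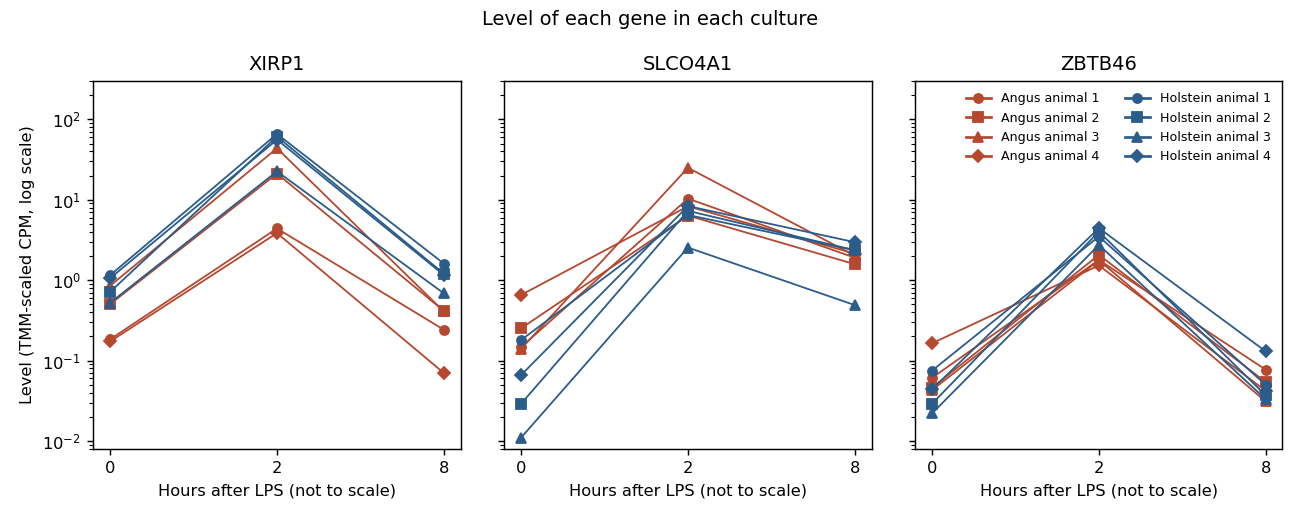
Level of XIRP1, SLCO4A1 and ZBTB46 (TMM-scaled CPM, log scale) at 0, 2 and 8 h after LPS, with a line for each of 4 Angus and 4 Holstein cultures. All 8 lines peak at 2 h in each panel. At 8 h only SLCO4A1 is, in every culture, above the 0 h level of that same culture.

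Whether the rise lasted to 8 h was tested against 0 h. The 0 h samples were also part of the contrast that selected the genes. The tests of 8 h against 0 h are therefore not independent of that selection. The filter on low counts removed all 3 genes from this comparison of 8 h with 0 h. SLCO4A1 reached 1 CPM in 7 samples at 8 h and 0 at 0 h, and the study's own list holds it as higher at 8 h. For the 3 genes an exact permutation test that flips the sign of the change in each of the 8 cultures was used, on log2(CPM + 0.1). SLCO4A1 was higher at 8 h in 8 of 8 cultures, by a mean of 3.00 on that scale (exact permutation P = 0.0078, the smallest that 8 cultures can give). XIRP1 differed by 0.00 (exact permutation P = 1.0) and ZBTB46 by -0.02 (exact permutation P = 0.836), both smaller than the spread between cultures.

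Without the filter, 244 of 51552 rows (0.473%) were called higher at 8 h by the edgeR likelihood-ratio test, and SLCO4A1 was among them, with a log2 fold change of 3.37 (0.51) and a Benjamini-Hochberg FDR of 2.66e-07. The same fit gave 0.16 (0.50) and an FDR of 0.935 for XIRP1 and -0.12 (0.48) and an FDR of 0.956 for ZBTB46. When the 3 animals whose 0 h samples had the other counting were left out, the mean change of SLCO4A1 was 2.79, and 5 cultures cannot give an exact permutation P below the 0.0625 that was found.

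Per culture, SLCO4A1 at 8 h was 3.27-fold to 14.4-fold its 0 h level in Angus and 13.1-fold to 80.7-fold in Holstein. Without the animals whose 0 h samples had the other counting, the ranges were 6.28-fold to 14.4-fold and 13.1-fold to 44.9-fold. XIRP1 at 8 h was above 0 h in 4 of 4 Holstein cultures, 1.10-fold to 1.68-fold, and in 1 of 4 Angus cultures, 0.406-fold to 1.31-fold. The difference between the breeds in this change was 0.78 on the log2(CPM + 0.1) scale (exact permutation P = 0.0571) for XIRP1, 1.01 (exact permutation P = 0.143) for SLCO4A1 and 0.37 (exact permutation P = 0.371) for ZBTB46. None of the 3 passed 0.05. Without the 4 samples named above, the value was 0.68 for XIRP1, -0.03 for SLCO4A1 and -0.08 for ZBTB46.

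**Figure D2:**
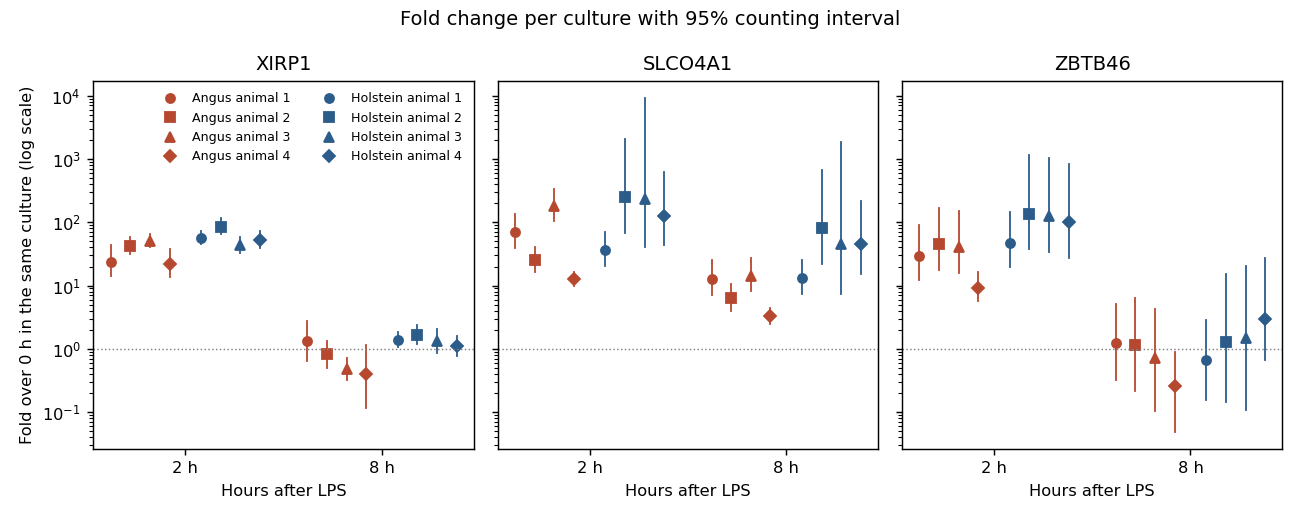
Fold over 0 h in the same culture at 2 h and 8 h (log scale), with a point for each animal and a bar for the 95% exact counting interval. At 8 h, XIRP1 and ZBTB46 lie around the dotted line of no change, while SLCO4A1 lies between 3.27-fold and 80.7-fold.

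Breed was compared next, with 4 animals on each side at every hour. The values at 0 h and 2 h are those that selected the genes, with the breeds combined. At 0 h the filter removed the 3 genes, and with all 8 cultures no difference passed the exact permutation test: XIRP1 was higher in Holstein by 1.01 on the log2(CPM + 0.1) scale (exact permutation P = 0.114), SLCO4A1 lower by a difference of -1.14 (exact permutation P = 0.0857) and ZBTB46 lower by -0.29 (exact permutation P = 0.286). The groups overlapped for each gene. Without Angus animal 3 the difference of XIRP1 was 1.36, and without Holstein animal 1 that of SLCO4A1 was -1.41, each with an exact permutation P of 0.0286. Without the 3 samples at 0 h with the other counting, the differences were 0.69 for XIRP1 (exact permutation P = 0.4), -0.65 for SLCO4A1 (exact permutation P = 0.4) and -0.04 for ZBTB46 (exact permutation P = 1.0). In the fit without the filter, where 1.59% of rows were called, the edgeR FDR was 0.324 for XIRP1, 0.0993 for SLCO4A1 and 0.556 for ZBTB46.

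At 2 h the genes did not share a direction between breeds. By the edgeR likelihood-ratio test with Benjamini-Hochberg adjustment, 4.46% of 20184 rows were called, and ZBTB46 was the one of the 3 that was. Its mean was 3.67 ± 0.73 CPM in Holstein cultures and 1.79 ± 0.22 CPM in Angus cultures (SD, n = 4), a log2 difference of 1.03 (0.22) with an FDR of 8.17e-05, and every Holstein culture lay above every Angus culture. Its fold was close to the limit of 2. The log2 difference fell to 0.96, 0.99 and 0.93 without Angus animal 4, Holstein animal 2 and Holstein animal 4, with an FDR of 0.00169 or lower.

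The mean of XIRP1 at 2 h was 51.4 ± 19.7 CPM in Holstein cultures and 18.3 ± 18.8 CPM in Angus cultures (SD, n = 4), a log2 difference of 1.49 (0.70) that did not pass (edgeR FDR = 0.130). The overlap came from 2 animals, since Angus animal 3 at 43.7 CPM lay above Holstein animal 3 at 22.6 CPM. Without Angus animal 3, whose 2 h sample had the other counting, the difference was 2.38 with an edgeR FDR of 0.00232. The covered bases per count of XIRP1 itself were 95.5 in that sample and 95.1 to 96.0 in the other 2 h samples.

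SLCO4A1 pointed the other way at 2 h, with 6.16 ± 2.53 CPM in Holstein cultures and 12.5 ± 8.51 CPM in Angus cultures (SD, n = 4), a log2 difference of -1.03 (0.48) with an edgeR FDR of 0.117. The breeds overlapped, and the highest sample, Angus animal 3 at 25.04 CPM, was again the one with the other counting. When it was left out the difference was -0.44 (edgeR FDR = 0.417). The covered bases per count of SLCO4A1 itself were 83.6 in that sample and 75.7 to 86.3 in the other 2 h samples.

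By 8 h XIRP1 had a mean of 1.17 ± 0.38 CPM in Holstein cultures and 0.284 ± 0.163 CPM in Angus cultures (SD, n = 4), and all Holstein cultures lay above all Angus cultures. On the log2(CPM + 0.1) scale the difference was 1.79 (exact permutation P = 0.0286, the smallest that 4 against 4 can give). Without the filter, where 1.34% of rows were called, the log2 difference was 2.02 (0.46) and the edgeR FDR 0.00137, with an average of 0.793 CPM, below the limit for a call. Without Angus animal 4, which had 5 counts, the difference was 1.45 (exact permutation P = 0.0571).

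The breeds lay close in SLCO4A1 by 8 h, with 2.05 ± 1.08 CPM in Holstein cultures and 1.91 ± 0.24 CPM in Angus cultures (SD, n = 4), a log2 difference of 0.11 (0.44) with an edgeR FDR of 0.904, where 3.25% of 20679 rows were called. ZBTB46, at 2 to 13 counts per sample, differed by 0.08 on the log2(CPM + 0.1) scale (exact permutation P = 0.8), and a breed difference at that hour was not detectable at this depth.

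Put in order of their means, the 6 groups of XIRP1 ran from Holstein 2 h through Angus 2 h, which overlapped, down to Holstein 8 h, Holstein 0 h, Angus 0 h and Angus 8 h, each of which overlapped its neighbour. For SLCO4A1 the order was Angus 2 h, Holstein 2 h, Holstein 8 h, Angus 8 h, Angus 0 h and Holstein 0 h. The only gap between neighbours was the one between Angus 8 h and Angus 0 h. Holstein 8 h overlapped Angus 0 h, with Holstein animal 3 at 0.490 CPM and Angus animal 4 at 0.655 CPM. For ZBTB46, Holstein 2 h stood above Angus 2 h and this above the rest, with no overlap at either step. Among Holstein cultures, animal 3 was the lowest at 2 h for all 3 genes.

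The interaction of breed and LPS asked whether the rise at 2 h differed between breeds. It rests on the 0 h and 2 h values that selected the genes, so its FDRs are not independent of that selection. It was called in 56 of 20157 rows (0.278%) and in none of the 3 genes. ZBTB46 came nearest, with a larger rise in Holstein by 2.02 (0.60) on the log2 scale and an edgeR FDR of 0.081. With the animal as a block, under which 0.625% of rows were called, ZBTB46 was called, at 1.91 and an edgeR FDR of 0.0402, and the F test with the block gave an FDR of 0.147. Without the 4 samples the value was 1.18 (edgeR FDR = 0.713), and without Angus animal 4, whose 0 h sample had 17 counts of ZBTB46 where the other 7 cultures had 2 to 5, it was 1.25 (edgeR FDR = 1.0). Over the fits that each left out 1 animal, it was 1.25 to 2.48 with an edgeR FDR of 0.0421 to 1.0, and it was called without Angus animal 2 and without Angus animal 3. The interaction was 0.49 (0.94) for XIRP1 and 1.06 (0.93) for SLCO4A1, each with an edgeR FDR of 1.0. Leaving out 1 animal at a time moved these to 0.32 (without Holstein animal 2) to 0.80 (without Angus animal 3) and to 0.17 (without Angus animal 4) to 2.14 (without Holstein animal 1), with none called. Without the 4 samples they were 1.68 (edgeR FDR = 0.694) for XIRP1 and 0.55 (edgeR FDR = 0.914) for SLCO4A1.

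Summed marker levels of other cell types differed by breed at 2 h. Striated muscle markers summed to 4.74 to 5.96 CPM in Holstein and 2.91 to 3.93 CPM in Angus, endothelial markers to 3.82 to 5.52 and 2.71 to 3.66 CPM, and keratinocyte markers to 2.16 to 12.72 and 1.39 to 2.03 CPM, each without overlap. Single markers did not all follow these sums. VWF was at 1.74 to 2.51 CPM in Holstein and 0.513 to 1.59 CPM in Angus. PECAM1 was at 0.043 to 0.199 CPM in Holstein and 0.209 to 0.902 CPM in Angus, and CDH5 at 0.014 to 0.031 and 0.037 to 0.247 CPM. Among muscle markers, DES averaged 0.890 CPM in Holstein and 0.271 CPM in Angus, and MYF5 0.030 and 0.110 CPM. At 0 h, when XIRP1 and ZBTB46 were low, muscle markers already summed to 3.92 to 5.73 CPM in Holstein and 2.14 to 3.97 CPM in Angus, and endothelial markers to 2.64 to 4.87 and 3.1 to 3.83 CPM. Dendritic cell markers overlapped at 2 h, at 0.79 to 1.04 CPM in Holstein and 0.55 to 1.77 in Angus, as did macrophage markers, at 4.23 to 5.52 and 4.46 to 6.60 CPM. Their part in the breed differences of XIRP1 and ZBTB46 was not tested.

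The rows beside the 3 genes were examined next, by position. The interval without a symbol that follows ZBTB46 downstream (chromosome 13, 54499224 to 54502119) had 47.6% to 76.4% as many counts as ZBTB46 at 2 h and was at 0.034 to 0.055 CPM on average in the groups of the other hours. Its level at 2 h was 2.03 CPM in Holstein and 1.13 in Angus, a log2 difference of 0.84 (0.25) with an edgeR FDR of 0.00838 and a fold under 2. The interval downstream of SLCO4A1 (chromosome 13, 55135138 to 55149363) does not overlap the gene and had 21.9% to 28.8% as many counts as SLCO4A1 at 2 h in every culture. Its level followed the gene, from 0.679 CPM in Holstein animal 3 to 6.10 CPM in Angus animal 3, the cultures in which SLCO4A1 was lowest and highest. The interval downstream of XIRP1 had 0.8% to 4.2% as many counts as XIRP1. The interval upstream of it was not called at 2 h with the breeds combined (log2 change -0.38, edgeR FDR = 0.452). It was called between breeds at 2 h (log2 difference 1.01, standard error 0.29, edgeR FDR = 0.00522). Its level then was 2.34 to 3.83 CPM in Holstein and 1.08 to 2.12 CPM in Angus. The fold between breeds was under 2 without Angus animal 1 or 3 or Holstein animal 1 or 3. Before LPS its mean was already 3.81 CPM in Holstein and 2.05 CPM in Angus, with overlap. Its log2 change from 0 h to 2 h differed between breeds by 0.13 (standard error 0.39), which was not called.

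Upstream of ZBTB46 the pattern was another. The interval of 40.3 kb before the gene (chromosome 13, 54430674 to 54471016) was expressed before LPS, with means of 4.54 CPM in Holstein and 4.12 CPM in Angus cultures. It rose in 4 of 4 Holstein cultures, to 7.28 to 9.05 CPM at 2 h, and was at 3.33 to 4.23 CPM in the Angus cultures. The breeds did not overlap at 2 h (log2 difference 1.04, standard error 0.16, edgeR FDR = 9.72e-09, called, with a fold just under 2 without Angus animal 2 or Holstein animal 1), and the interaction was 0.92 (0.23) with an edgeR FDR of 0.0141 and a fold under the limit. By 8 h it was back at 4.55 and 4.01 CPM.

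CSRNP1, a nuclear protein gene of the cysteine and serine rich family on the same strand as XIRP1, is the nearest gene to it, 16.9 kb from its end (chromosome 22, 12520393 to 12532806). At 0 h it was at 8.36 to 10.7 CPM in Holstein cultures and 7.90 to 10.3 CPM in Angus cultures, against 30.2 to 41.8 and 6.85 to 16.3 CPM at 2 h. It was highest at 2 h in 4 of 4 Holstein and 2 of 4 Angus cultures, and averaged 10.5 and 9.44 CPM at 8 h. The combined change at 2 h was 1.41 (0.33) on the log2 scale (edgeR FDR = 0.000284, called) and the breed difference at 2 h was 1.73 (0.28, edgeR FDR = 2.02e-07, called). The interaction was 1.68 (0.33, edgeR FDR = 0.000373, called), and the F test gave an FDR of 0.0578. At 2 h the breeds thus separated in CSRNP1, where they overlapped in XIRP1. CX3CR1, on the other side of XIRP1, and NTSR1 and LOC100847256 beside SLCO4A1 averaged 0.101 CPM or less in every group. Of the genes beside ZBTB46, ABHD16B averaged 2.06 to 2.86 CPM and SLC2A4RG 8.49 to 11.95 CPM over the groups, with log2 changes at 2 h of 0.17 (edgeR FDR = 0.618) and -0.09 (edgeR FDR = 0.721).

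SLCO4A1 and ZBTB46 share a chromosome. Of 33 rows with a symbol between them 18 were tested at 2 h, with 0 called by the edgeR likelihood-ratio test, the F test or DESeq2, where 2.82% of all rows were called in either direction, so that a count of 0 lies near the background. At an unadjusted P under 0.05 there were 12 of the 18, against 30.4% of all rows, with log2 fold changes from -0.48 to 0.60 (median 0.18).

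**Figure D3:**
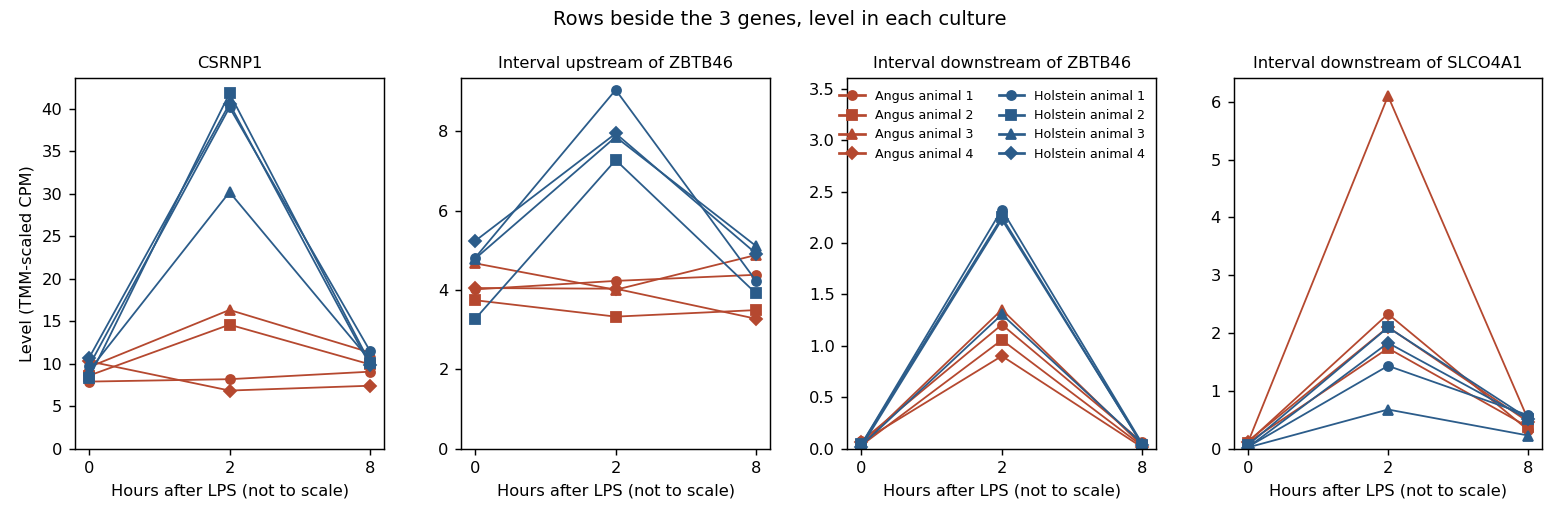
Level (TMM-scaled CPM) at 0, 2 and 8 h of CSRNP1 beside XIRP1 and of 3 intervals without a symbol beside ZBTB46 and SLCO4A1, with a line for each culture. CSRNP1 and the interval upstream of ZBTB46 separate the breeds at 2 h, while the downstream intervals rise in all 8 cultures.

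Relatives and partners of the 3 proteins were counted against the same background, 2.82% called and 30.4% at an unadjusted P under 0.05 at 2 h, and 1.42% and 24.7% at 8 h. With lists this short, counts of 0 to 2 calls lie near it. Of 23 genes for Xin partners and regulators 18 were tested at 2 h and 0 were called by edgeR, its F test or DESeq2 (8 at an unadjusted P under 0.05), with a median log2 change of 0.08 against 0.00 over all rows tested. XIRP2, the paralog of XIRP1, was at 0.491 to 1.45 CPM and was not tested. The 2 partners with the lowest edgeR FDR, named after their values were seen, were FLNC, the muscle filamin that binds Xin (log2 0.92, edgeR FDR = 4.2e-11), and VASP, an actin regulator (log2 0.70, edgeR FDR = 1.15e-11), both with a fold under 2. At 8 h 17 were tested and 0 called by edgeR, its F test or DESeq2 (8 at an unadjusted P under 0.05), with a median of -0.01, the same as over all rows.

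Of 8 other SLCO transporters, 2 were tested at 2 h (median -0.07) and 3 at 8 h (median -0.05), with 0 called by edgeR, its F test or DESeq2 and 0 at an unadjusted P under 0.05. SLCO3A1, a widely expressed member, was at 1.39 to 13.5 CPM with a log2 change of -0.02 at 2 h (edgeR FDR = 0.987). It was called lower in Holstein at 2 h, at 3.92 ± 1.65 CPM against 8.11 ± 3.42 CPM in Angus (SD, n = 4), with overlap (log2 difference -1.06, standard error 0.40, edgeR FDR = 0.0458), but not by the F test (FDR = 0.0911) or in 6 of the 8 fits that left out 1 animal, all but those without Angus animal 2 or Holstein animal 2 (-1.32 to -0.84, edgeR FDR = 0.00291 to 0.179). SLCO2A1, the prostaglandin transporter, was at 0.230 to 1.02 CPM and not tested. Of 12 genes that handle thyroid hormone, such as the deiodinases and receptors, 7 were tested at 2 h and 6 at 8 h, with 0 called by edgeR, its F test or DESeq2, 4 and 2 at an unadjusted P under 0.05, and medians of -0.19 and -0.16. Between breeds at 2 h, where 4.46% of all rows were called, 1 of the 7 was called. This was SLC7A8, an amino acid transporter that also carries thyroid hormone, named after its values were seen. It was at 0.457 to 0.904 CPM in Holstein and 1.22 to 2.03 CPM in Angus, without overlap (log2 difference -1.18, standard error 0.27, edgeR FDR = 0.000373), and the filter removed it when any Angus animal was left out.

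Among 40 BTB zinc finger genes, 32 were tested at 2 h, 1 was called higher and 1 lower, 23 had an unadjusted P under 0.05, and the median was -0.15. HIC1, a transcriptional repressor, rose by 1.12 on the log2 scale (edgeR FDR = 1.09e-06), and ZBTB7C fell by 1.26 (edgeR FDR = 0.00524). ZBTB7C was also the 1 gene called at 8 h, of 33 tested, with a log2 change of -1.13 (edgeR FDR = 0.0174), 10 at an unadjusted P under 0.05 and a list median of 0.01. Between breeds at 2 h, 0 of 18 Xin partners and 0 of 32 BTB genes were called, with 7 and 12 at an unadjusted P under 0.05. Over all rows that comparison called 4.46%, and 6470 of 20184 rows had an unadjusted P under 0.05, so these counts lie near the background. Without the 4 samples ZBTB7C was not called at 2 h (-0.89, edgeR FDR = 0.0833) or 8 h (-0.88, edgeR FDR = 0.141), and it was not called at 8 h without Holstein animal 1 or Holstein animal 4. BCL6, also a transcriptional repressor, had a log2 change of 0.35 (edgeR FDR = 0.00991, fold under 2), and ZBTB16 was at 0.013 to 0.291 CPM and not tested.

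The genes with the most similar course were sought among 13480 rows with a symbol, by the root mean square difference of the log2(CPM + 0.1) change from 0 h over 16 culture-hours. The 2 h values that selected the genes are part of this measure, so it is a description. XIRP1 was nearest to EGR3 (0.61 log2 units), FOSB (0.84), ZBTB46 (0.89), ARC (0.90) and LIF (1.08). EGR3, FOSB and ARC are immediate early genes, switched on without new protein synthesis, and LIF is a cytokine of the IL6 family. ZBTB46 was nearest to ARC (0.53), NFATC1 (0.84), EGR3 (0.84), LIF (0.86) and DUSP5 (0.87).

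SLCO4A1 was nearest to a different set, TNFAIP3 (0.64), PTGS2 (0.68), LOC100138376 (0.70), NFKBIA (0.81) and CD83 (0.85). TNFAIP3 and NFKBIA encode inhibitors of NF-kB signalling and PTGS2 the inducible prostaglandin synthase, and LOC100138376 overlaps PTGS2 on the opposite strand, so the pair may share counts. The difference was 2.27 between XIRP1 and SLCO4A1 and 2.38 between ZBTB46 and SLCO4A1, against 0.89 between XIRP1 and ZBTB46. The order depends on the pseudocount. With 1 CPM in place of 0.1, 3 of the 5 genes nearest to XIRP1 remained (EGR3, LIF and FOSB), 1 of 5 for ZBTB46 (ARC) and 0 of 5 for SLCO4A1, whose nearest then was RGS16.

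**Figure D4:**
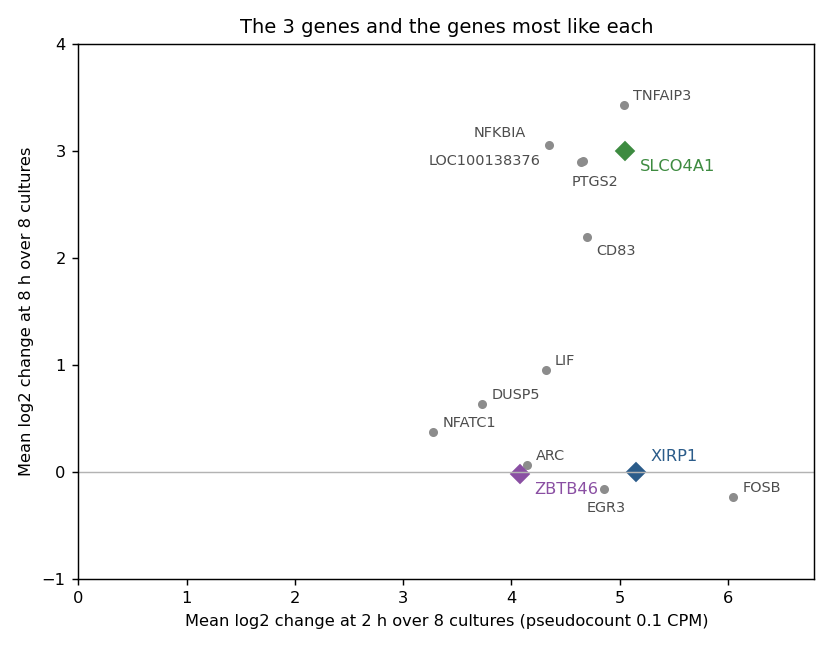
Mean log2 change from 0 h over 8 cultures at 2 h (horizontal) and 8 h (vertical), with a pseudocount of 0.1 CPM, for the 3 genes (diamonds) and the 5 genes most like each (circles, shared genes drawn once). XIRP1 (5.15 and 0.00) and ZBTB46 (4.08 and -0.02) lie on the line of no change at 8 h, and SLCO4A1 (5.05 and 3.00) lies near TNFAIP3 and PTGS2.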

How the data were processed

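The authors filtered the reads and aligned them to UMD v3.1 with NextGENe 2.3.4, and the labels also name CASAVA 1.7. The read counts the authors deposited are raw whole-number counts per row. The mean coverage deposited beside them is a signal value, used here to see how reads were assigned. Samples were grouped by breed and hour from their labels.

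Counts were fitted with edgeR 4.0.16 in R 4.3.3 (TMM scaling, CPM of 1 or more in at least 50% of the samples compared, likelihood-ratio test, Benjamini-Hochberg over all rows tested), after the study's methods. The fits of LPS, breed and their interaction at 2 h were tested on simulated data, with 100 rows changed by each of 2 log2 sizes, 1.5 and 3. They recovered 92% and 93% of these rows for LPS, 91% and 89% for breed and 83% and 95% for the interaction. False calls among unchanged rows numbered 2, 23 and 13. Where the filter removed a gene, a two-sided exact permutation test of log2(CPM + 0.1) was used with scipy 1.17.1. There were 11 such tests, not adjusted for one another. The alternatives were the F test, DESeq2 1.42.0, other scaling, no filter, another pseudocount, samples left out and the animal as a block. Same-numbered samples of a breed come from the same animal, and their deviations correlated across genes with r from 0.47 to 0.725 (16 pairs).

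The genes, lists and tests were chosen with earlier results of these data known. Beyond the 3 genes, the text names list genes called in an LPS comparison (partners of Xin, SLCO transporters, thyroid hormone genes and BTB zinc finger genes), 5 preset relatives, the 5 most similar genes and adjoining rows. CSRNP1, the next gene beyond an adjoining interval, was named after its values were seen, as were FLNC, VASP and SLC7A8. Promoter sequences were not analysed here.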

Additional observations from a re-analysis of the deposited data

Results flagged for a closer look

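ZBTB46 in Angus at 0 h had 1 sample far from the other 3, animal 4 at 0.164 CPM (17 counts) against 0.043 to 0.061 CPM, by Dixon's criterion. That sample is among the 4 with the other COL1A1 counting. A total of 30 groups of 4 were examined and 1 was marked, and chance marks about 1 in 20.

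The response at 2 h differed between breeds in 2 rows beside the genes. CSRNP1, the gene next to XIRP1, had an interaction of 1.68 on the log2 scale (edgeR FDR = 0.000373), where Holstein cultures reached 38.2 ± 5.37 CPM at 2 h and Angus cultures 11.5 ± 4.67 CPM (SD, n = 4). The interval upstream of ZBTB46 had one of 0.92 (edgeR FDR = 0.0141).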

How the results depend on the processing

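Of 596 values computed under alternative settings, 530 counted as the same. A tested value had to keep its direction and its side of the threshold, and a count of rows to stay within 1.5 times. Values of the 3 genes at 2 h against 0 h and at 8 h against 2 h were not tested. They had to differ from the main value by less than the SD between cultures. For the 3 genes at 2 h against 0 h all did, and leaving out 1 animal gave log2 changes of 5.61 to 5.79 for XIRP1, 5.18 to 6.29 for SLCO4A1 and 5.22 to 5.95 for ZBTB46.

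Leaving out 1 animal at a time, the change at 8 h was -0.092 to 0.134 for XIRP1, 2.82 to 3.20 for SLCO4A1 and -0.12 to 0.11 for ZBTB46. The breed difference at 0 h was 0.76 to 1.36 for XIRP1, -1.41 to -0.78 for SLCO4A1 and -0.39 to -0.09 for ZBTB46, and XIRP1 without Angus animal 3 and SLCO4A1 without Holstein animal 1 then passed (exact permutation P = 0.0286). At 2 h it was 1.15 to 2.38 for XIRP1 and 0.93 to 1.16 for ZBTB46, and at 8 h 1.45 to 2.00 for XIRP1, -0.14 to 0.42 for SLCO4A1 and -0.10 to 0.16 for ZBTB46. The interaction at 2 h was 0.32 to 0.80 for XIRP1, 0.17 to 2.14 for SLCO4A1 and 1.25 to 2.48 for ZBTB46, and that of XIRP1 at 8 h 0.61 to 1.00. The counts of rows called between breeds were 515 to 1119 at 0 h and 446 to 1133 at 8 h, and those of the interaction 33 to 81 at 2 h and 2 to 62 at 8 h.

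Without the 4 samples with the other counting, the log2 change at 2 h was 5.69 for XIRP1, 5.58 for SLCO4A1 and 5.83 for ZBTB46, the change at 8 h was -0.017 for XIRP1 and 2.79 for SLCO4A1, the breed difference of XIRP1 at 2 h 2.38, the interactions at 8 h -0.031 for SLCO4A1 and -0.076 for ZBTB46, the breed count at 0 h 259 and the interaction count at 8 h 6. With CPM by the total count, chosen after seeing the data, ZBTB46 changed by 0.004 at 8 h and the interaction of XIRP1 at 8 h was 0.83. It was 0.35 with a pseudocount of 1 CPM, and both passed (exact permutation P = 0.0286). The cause was not tested.

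In the fit with a replicate block for animal, the interaction of ZBTB46 at 2 h was 1.91 and called, and 126 rows were called at 2 h and 100 at 8 h. Without the filter as well, which was added later, there were 128 and 109. The block changed no other call for the 3 genes. The F test without a block called 16 rows at 2 h and 0 at 8 h, where 756 had an unadjusted P under 0.05 and DESeq2 called 24. Levels of ZBTB46 away from 2 h rest on 2 to 17 counts, and depth limits any statement on them.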

Other observations

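The covered bases per count of SLCO4A1, the mean coverage times the length of the row divided by the count, were 75.7 to 86.3 in the 8 samples at 2 h and 68.3 to 78.9 in 7 of 8 samples at 8 h. At 0 h the values are ranges, because the coverage is rounded and the counts are few. In Angus animal 4, which had the most SLCO4A1 counts before LPS (68) and is among the 4 samples with the other COL1A1 counting, it was 93.3 to 96.6, and in Angus animal 2 (22 counts) 89.1 to 99.6. At 0 h the ranges of Angus animal 3 (79.8 to 97.6) and of Holstein animals 2 (57.6 to 173.0), 3 (0.0 to 115.3) and 4 (38.4 to 115.3) overlapped the values at 2 h. Those of Angus animal 1 and Holstein animal 1 (86.5 to 105.7 in each) began just above the highest value at 2 h. In Holstein animal 3 at 8 h, where SLCO4A1 was lowest at that hour (30 counts), it was 96.1 to 103.8. For XIRP1 the samples at 2 h held 95.1 to 96.0 bases per count.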
